A study of Mus musculus with 21 samples.

Results

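Microglia that had been transplanted into the mouse brain (MG, 3 libraries) were compared with the microglia of mice without a transplant (NoTx, 2 libraries), all after saline. These 5 libraries were taken from a series of 21 by their labelled cell type and treatment, and 18867 of 57180 genes passed a low-count filter and were tested. Cells were sorted from brain by flow cytometry, and mRNA was read in bulk from each sorted sample. For MG the labels give the genotype Osb-GFP. For NoTx they give CX3CR1-CreER+/-; CSF1R fl/fl, that is, 1 copy of an inducible Cre recombinase under Cx3cr1 control and floxed Csf1r alleles. The labels name no inducer of the recombinase, no sort gate, no age and no genotype of the brains that received the MG cells. Genotype and transplantation cannot be told apart, since every MG library had the one genotype and every NoTx library the other. All 5 libraries were labelled batch 2. The same contrast was available 5 days after seizures induced with the excitotoxin kainic acid (4 MG and 3 NoTx libraries of the same genotypes). Those were all batch 1, which means that a difference of saline from seizure cannot be told apart from one of batch. The 3 saline libraries of transplanted monocyte-derived cells (MLC, genotype Osb-GFP) are given beside some genes as a point of reference. The labels call the samples biological replicates without saying whether each was 1 animal or a pool. The p values of the main fit therefore measure a spread between samples, estimated over all 21 libraries and not the 5 alone.

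Microglia, the macrophages resident in brain tissue, settle there before birth, renew themselves locally and depend on signals through Csf1r, the receptor of the growth factors Csf1 and Il34. In a healthy brain they express surface receptors with which they sense neurons, such as P2ry12 for nucleotides and Cx3cr1 for the neuronal chemokine fractalkine, and a transcription factor, Sall1, that other macrophages lack. Macrophages that enter the brain from bone marrow keep other genes, among them Clec12a, Cybb, Ms4a7 and members of the Ifi200 family, and macrophages of the brain borders are known for Pf4, F13a1, Mrc1 and Lyve1.

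Both arms carried the transcripts that mark microglia. P2ry12 was read at 15425, 13285 and 11156 CPM (counts relative to library size, normalised by the trimmed mean of M values) in MG and at 18221 and 21861 in NoTx. Sall1 was at 334, 263 and 429 CPM in MG and at 273 and 113 in NoTx. The summed homeostatic list of 25 genes took 109900 to 139200 CPM in MG and 103500 to 129300 in NoTx, against 27450 to 54700 in MLC. The label of microglia therefore held in all 5 libraries by these markers.

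The libraries were of similar depth, with 38888522 to 45425025 estimated counts in MG and 36528863 and 39729702 in NoTx, and 18276 to 21814 and 18985 to 19746 genes detected. Log CPM correlated at 0.929 to 0.955 between MG libraries, at 0.933 between the NoTx libraries and at 0.868 to 0.949 between arms, as a description over the genes tested. The lowest of these values joined MG replicate 3 and NoTx replicate 2. These same libraries lay at opposite ends of a trend with the GC content of transcripts. Among genes above 55% GC the median level of MG replicate 3 lay 0.65 above the mean of the 5 libraries on the log2 scale, and that of NoTx replicate 2 lay at -0.78. The median log2 fold change of MG over NoTx accordingly ran from -0.59 in genes at or below 40% GC to 0.79 in genes above 55%, and lay within 0.06 of 0 in each class once the trend was removed. The plot of level by GC content shows the crossing lines, and values below are as counted unless the trend is said to be removed.

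**Figure D1:**
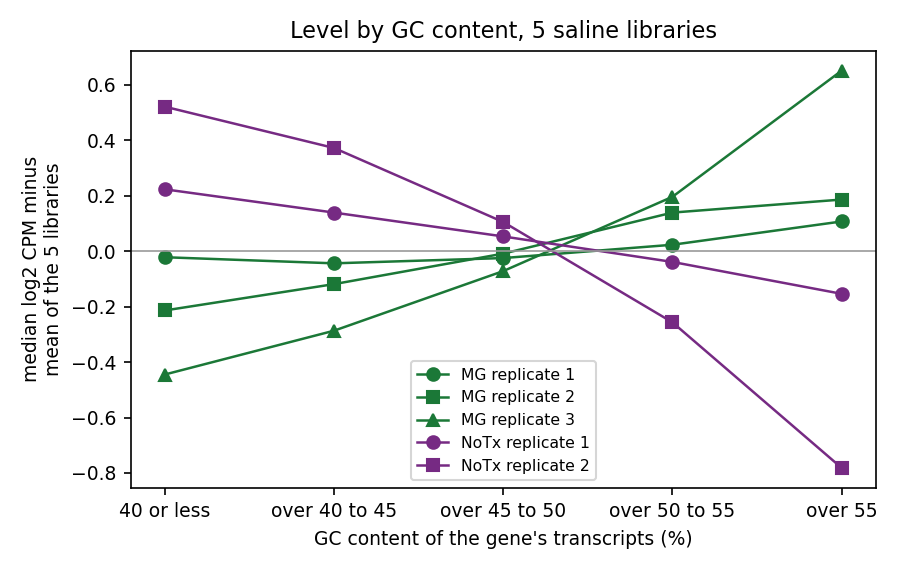
Median log2 CPM of genes in 5 classes of transcript GC content, in percent, relative to the mean of the 5 saline libraries; green lines are MG and purple lines NoTx replicates. The lines cross near 50% GC, and above 55% MG replicate 3 reaches 0.65 while NoTx replicate 2 is at -0.78.

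Few genes passed a test across all genes. With edgeR's quasi-likelihood test and Benjamini-Hochberg adjustment at 0.05, 1 gene was higher in MG (0.0053% of those tested) and 9 were lower (0.0477%). At an unadjusted p under 0.05, 239 were higher (1.27%) and 402 lower (2.13%). All 3 MG libraries lay above both NoTx libraries in 3483 genes (18.5%) and below both in 3460 (18.3%), so that a count of genes whose groups do not overlap has to be read against these shares. In simulated data with these group sizes, the test found 27.3% of genes changed 8-fold, 4.48% of those changed 4-fold and 0% of those changed 2-fold, and many differences of that size would not be detectable here. The number of calls also rested on single libraries: without NoTx replicate 2 only Mndal passed, and without NoTx replicate 1 the calls numbered 17, in each case with the lone NoTx library assumed to vary like the other groups. Mndal and Clec12a were the 2 that passed without MG replicate 2 or without MG replicate 3.

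Of the 9 genes that fell, 5 are on a list of transcripts that bone-marrow-derived brain macrophages express above microglia. That list was drawn up with earlier results of these data known, so the overlap is not independent of them. Mndal and Ifi203, members of the interferon-inducible Ifi200 family of nuclear proteins, are both on chromosome 1. Mndal was at 0.629, 0.228 and 0.083 CPM in MG and at 6.28 and 22.5 in NoTx (log2 fold change -5.49, SE 0.68, adjusted p = 0.000766 by edgeR's quasi-likelihood test). Ifi203 was at 0.815, 0.410 and 0.167 CPM in MG and at 5.86 and 34.4 in NoTx (log2 fold change -5.41, SE 0.92, adjusted p = 0.0155 by edgeR). Every MG library lay below both NoTx libraries for both genes. Genes of this family have near-identical stretches, and no source used here says how the authors' counting assigned shared reads, so the split between Mndal and Ifi203 is uncertain.

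Clec12a, an inhibitory C-type lectin receptor of granulocytes, monocytes and dendritic cells, was at 0.932, 0.821 and 0.555 CPM in MG and at 8.20 and 44.9 in NoTx (log2 fold change -5.10, SE 0.65, adjusted p = 0.000766 by edgeR). Cybb encodes the electron-transferring subunit of the oxidase with which phagocytes make superoxide. It was at 34.9, 26.7 and 13.4 CPM in MG and at 92.0 and 352 in NoTx (log2 fold change -3.15, SE 0.49, adjusted p = 0.0113 by edgeR). Pf4, a chemokine of platelets and border macrophages, was at 0.489, 0.661 and 0.416 CPM in MG and at 8.93 and 10.3 in NoTx (log2 fold change -4.19, SE 0.67, adjusted p = 0.0113 by edgeR). Of the called genes, Pf4 differed least between the 2 NoTx libraries, while Clec12a and Cybb were several times higher in NoTx replicate 2.

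The other 4 were Mgst1, Rgs18, Gm21188 and Gm36161. Mgst1, a membrane-bound glutathione transferase, was at 0.699, 0.661 and 0.250 CPM in MG and at 7.79 and 82.1 in NoTx (adjusted p = 0.0231 by edgeR). Rgs18, a regulator of G protein signalling found in platelets and myeloid cells, was at 0.256, 0.205 and 0.056 CPM in MG and at 7.23 and 21.6 in NoTx (adjusted p = 0.0187 by edgeR). Gm21188 and Gm36161 are neighbouring gene models on chromosome 13. Gm21188 was at 2.05, 0.342 and 0.389 CPM in MG and at 15.5 and 66.8 in NoTx (adjusted p = 0.0374 by edgeR). Gm36161 had 2, 0 and 2 counts in the MG libraries and 211 and 1471 in the NoTx libraries (adjusted p = 0.0155 by edgeR). In the plot of called genes by library, all 9 were also above the MG range in the 3 MLC libraries: Cybb, for example, was at 1923 to 2373 CPM there, and Clec12a at 415 to 534.

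**Figure D2:**
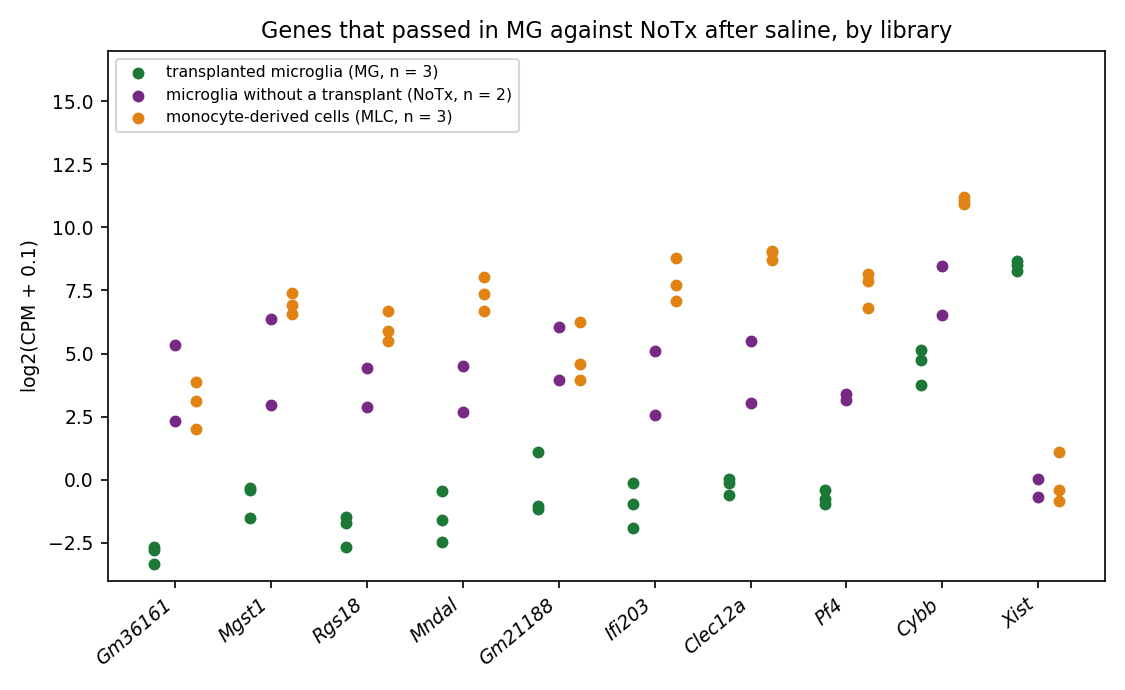
Level in each saline library, as log2(CPM + 0.1), of the 10 genes that passed in MG against NoTx; each point is a library of MG (n = 3), NoTx (n = 2) or MLC (n = 3). For 9 genes the 3 MG points lie below both NoTx points, and for Xist they lie above.

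Promoter windows show what 2 pairs of these genes share and which short elements the myeloid genes carry. Windows of 300 bases, 250 before to 50 after the start, came from RefSeq in the build GRCm38.p6 and matched 9 of the 10 called genes, all but Rgs18. Capitals mark 2 motifs, searched on both strands: GAGGAA, a core of the PU.1 site that many myeloid promoters use, and a pair of GAAA words 2 bases apart, the shape of an interferon-type element. Clec12a (chr6:129349994-129350293, plus strand) and Cybb (chrX:9469275-9469574, minus strand) are shown for these motifs, Mndal (chr1:173880138-173880437, minus strand) and Ifi203 (chr1:173942623-173942922, minus strand) as family members, and Gm36161 (chr13:120010092-120010391, plus strand) and Gm21188 (chr13:120052155-120052454, minus strand) as near copies:
Clec12a: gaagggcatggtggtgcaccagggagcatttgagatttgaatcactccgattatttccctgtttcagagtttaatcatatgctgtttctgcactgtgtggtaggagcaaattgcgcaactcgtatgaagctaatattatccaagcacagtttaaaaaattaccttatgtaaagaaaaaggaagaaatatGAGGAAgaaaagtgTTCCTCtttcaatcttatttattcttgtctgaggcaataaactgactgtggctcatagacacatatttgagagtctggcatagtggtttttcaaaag
Cybb: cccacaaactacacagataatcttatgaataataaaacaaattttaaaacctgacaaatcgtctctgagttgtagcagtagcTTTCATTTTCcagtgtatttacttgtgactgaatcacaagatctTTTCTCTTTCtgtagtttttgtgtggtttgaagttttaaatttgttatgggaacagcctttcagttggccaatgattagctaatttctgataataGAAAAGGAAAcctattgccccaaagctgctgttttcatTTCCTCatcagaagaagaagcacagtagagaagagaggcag
Mndal: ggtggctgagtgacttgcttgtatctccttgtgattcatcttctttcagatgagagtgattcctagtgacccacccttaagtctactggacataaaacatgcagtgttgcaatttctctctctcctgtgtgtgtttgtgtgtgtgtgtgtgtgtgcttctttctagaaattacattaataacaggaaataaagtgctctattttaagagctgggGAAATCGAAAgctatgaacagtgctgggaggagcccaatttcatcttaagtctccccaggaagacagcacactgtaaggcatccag
Ifi203: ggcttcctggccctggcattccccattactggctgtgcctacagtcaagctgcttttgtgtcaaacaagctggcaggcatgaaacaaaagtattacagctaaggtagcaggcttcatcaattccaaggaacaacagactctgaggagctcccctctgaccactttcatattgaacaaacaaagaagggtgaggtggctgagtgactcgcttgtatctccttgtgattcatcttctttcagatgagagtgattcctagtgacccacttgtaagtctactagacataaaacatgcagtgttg
Gm36161: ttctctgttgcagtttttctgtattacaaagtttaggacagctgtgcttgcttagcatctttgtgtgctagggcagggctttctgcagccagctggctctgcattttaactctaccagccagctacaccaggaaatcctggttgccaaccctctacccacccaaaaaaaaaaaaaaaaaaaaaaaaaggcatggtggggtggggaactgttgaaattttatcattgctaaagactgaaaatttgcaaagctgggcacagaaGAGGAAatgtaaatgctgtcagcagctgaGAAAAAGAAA
Gm21188: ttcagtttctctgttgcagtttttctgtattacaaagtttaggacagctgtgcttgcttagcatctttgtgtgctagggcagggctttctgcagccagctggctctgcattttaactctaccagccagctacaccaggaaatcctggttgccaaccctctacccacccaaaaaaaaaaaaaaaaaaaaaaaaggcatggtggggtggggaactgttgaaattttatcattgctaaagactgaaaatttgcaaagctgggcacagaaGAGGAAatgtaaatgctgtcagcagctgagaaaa
GAGGAA was in 5 of the 9 windows and in 28.3% of 27025 RefSeq promoter windows of the same length. The GAAA pair was in 3 of the 9 and in 3.49% of all. Clec12a held GAGGAA on both strands, and Cybb held the GAAA pair 3 times. A match describes letters and not a bound site, and where Gm36161 and Gm21188 share letters they are not separate cases. The longest stretch shared by Gm36161 and Gm21188 was 186 bases, and 98.3% of the Gm36161 window lay in words of 12 bases that the Gm21188 window also held. Of each window's 300 bases, 250 lie before the start, so the windows do not show how alike the transcripts are. How reads were split between the 2 models was not tested and stays uncertain. Mndal and Ifi203 shared a stretch of 58 bases, with 31.3% of either window in shared words.

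Transcripts of blood myeloid cells were present in the NoTx libraries beside these calls. Over the 7 tested neutrophil genes, the summed level was 2.50 to 8.39 CPM in MG, 70.1 in NoTx replicate 1 and 1656 in NoTx replicate 2. Ngp, a granule protein of developing neutrophils, was at 3.89, 1.67 and 1.17 CPM in MG and at 37.2 and 888 in NoTx. Camp, the antimicrobial cathelicidin, was at 0.699, 0.160 and 0.278 CPM in MG and at 9.61 and 280.3 in NoTx (adjusted p = 0.0642 by edgeR). S100a8, S100a9, Ltf, Mmp8 and Retnlg showed the same order, which makes 7 of 7 below in all MG libraries, where the share over all genes was 18.3%. None passed the test across all genes. Of the 5 neutrophil markers under the low-count filter, Ly6g had 1 and 58 counts in the NoTx libraries, Elane 0 and 20, Mmp9 2 and 21, Cxcr2 9 and 2, and Mpo 0 in both.

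The list of blood monocytes and dendritic cells had 15 tested genes, of which 11 lay below in all MG libraries and 1 above. The shares over all genes were 18.3% and 18.5%. The median log2 fold change of the list was -6.18 where that of all genes was 0.02. Its summed level was 19.9 to 31.6 CPM in MG and 181 and 1100 in NoTx. Chil3, a chitinase-like protein of monocytes and neutrophils, was at 1.00, 0.228 and 0.167 CPM in MG and at 33.7 and 490 in NoTx (log2 fold change -9.12, adjusted p = 0.0642 by edgeR). Ccr2, the receptor that draws monocytes out of the marrow, was at 17.6, 10.9 and 6.94 CPM in MG and at 73.1 and 307 in NoTx (unadjusted p = 0.0181 by edgeR). Cd209a, a lectin of monocyte-derived dendritic cells, was at 0.163, 0.023 and 0 CPM in MG and at 22.5 and 45.5 in NoTx. Ly6c2 was at 0.163, 0.046 and 0.056 CPM in MG and at 11.2 and 71.1 in NoTx. Cd209a, Ccr2, Chil3 and Ly6c2 were all higher in NoTx replicate 2 than in replicate 1, Cd209a by the smallest ratio.

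Border macrophage genes were the third such group. Of 21 tested, 1 fell (Pf4), 13 lay below in all MG libraries and 0 above, and the median log2 fold change was -2.58. The shares over all genes were 0.0477%, 18.3% and 18.5%. With the GC trend removed, 12 lay below (17.3% of all genes did) and 0 above (16.2%), with a median of -2.26. The list summed to 522 to 611 CPM in MG and to 923 and 1102 in NoTx. F13a1, the A subunit of coagulation factor XIII, was at 1.12, 1.16 and 0.472 CPM in MG and at 86.5 and 172 in NoTx (log2 fold change -7.13, SE 1.97, adjusted p = 0.543 by edgeR). Cd163, the haemoglobin scavenger receptor, was at 0.303, 0.091 and 0.194 CPM in MG and at 7.30 and 4.23 in NoTx. Mrc1, the mannose receptor, was at 27.9, 19.9 and 7.77 CPM in MG and at 43.5 and 33.8 in NoTx. Lyve1 had 3 counts over the 3 MG libraries and 174 over the 2 NoTx libraries, and Cd209f had 3 and 463. F13a1 and Cd163 passed when the fit held only the 8 saline libraries, as did Cd209a, Ly6c2, Chil3, Plac8 and Camp; in that fit 3 genes were higher (0.0174% of 17285) and 30 lower (0.174%).

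The list of genes that bone-marrow-derived brain macrophages express above microglia had 28 tested members. It was drawn up with earlier results of these data known. In it 5 fell (Mndal, Ifi203, Clec12a, Pf4 and Cybb), and 19 lay below in all MG libraries and 2 above (Apoe and Axl). Among all genes 0.0477% fell, 18.3% lay below and 18.5% above. The median log2 fold change of the list was -1.62. The list summed to 2710 to 3639 CPM in MG and 3738 and 6546 in NoTx, and to 49320 to 153600 CPM in MLC. Ms4a7, a membrane protein of such macrophages, was at 6.38, 4.31 and 1.92 CPM in MG and at 26.1 and 24.1 in NoTx (log2 fold change -2.58, unadjusted p = 0.00107 by edgeR). Lyz2, lysozyme, was at 448, 751 and 610 CPM in MG and at 691 and 3037 in NoTx, so that only NoTx replicate 2 stood apart. In the plot of summed marker lists, NoTx replicate 2 was the highest of the 5 saline libraries for neutrophil, monocyte, border and bone-marrow genes. In bulk samples, fewer cells of a type and less RNA per cell cannot be told apart. The part of other cells in the 9 calls was not tested.

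**Figure D3:**
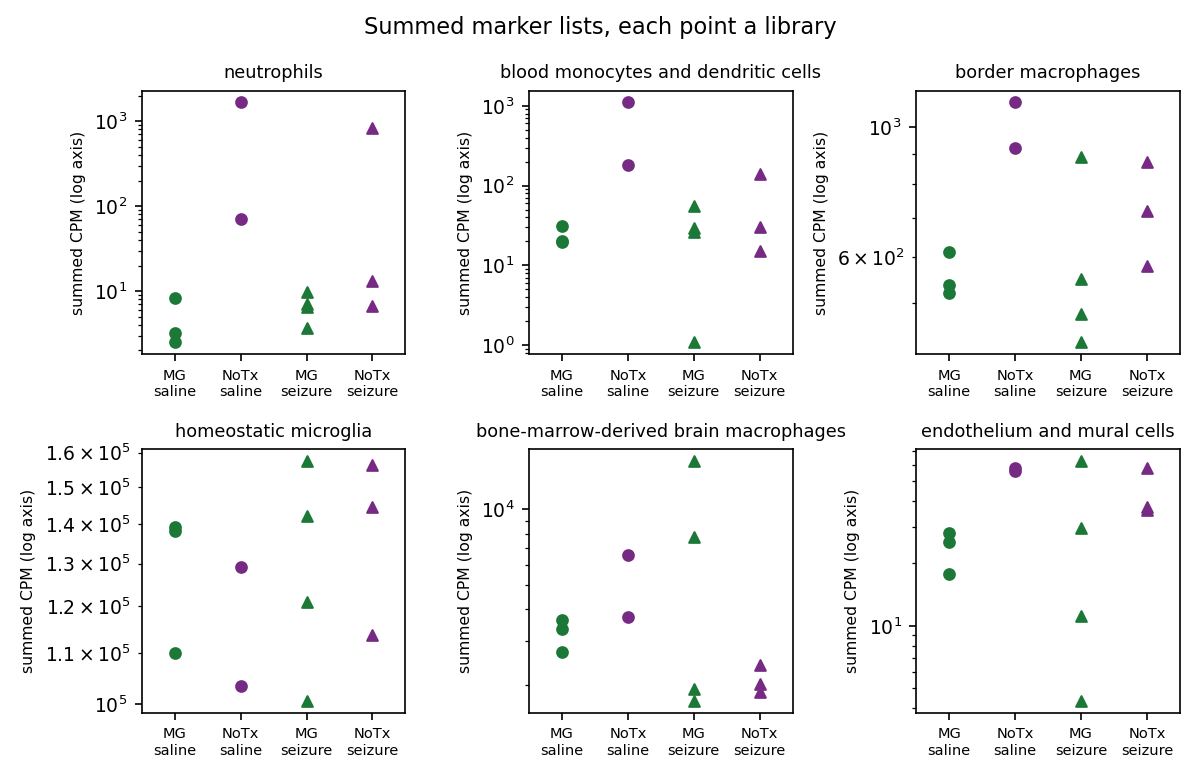
Summed CPM of 6 marker lists, on a log axis, in MG (green) and NoTx (purple) libraries after saline (circles) and seizure (triangles); each point is a library. Neutrophil sums are 2.50 to 8.39 in MG after saline and 70.1 and 1656 in NoTx, and 1 NoTx seizure library reaches 820.

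Sums for other cell types were close between arms in some lists and apart in others. Oligodendrocyte and precursor genes summed to 128 to 204 CPM in MG and to 93.4 and 61.9 in NoTx. B cell genes summed to 993 to 1251 CPM in MG and to 1003 and 1002 in NoTx. The median log2 fold change of the 6 tested B cell genes was -3.03. With the GC trend removed, Ighm alone was at 774, 849 and 620 CPM in MG and at 719 and 768 in NoTx. Astrocyte genes summed to 442 to 515 CPM in MG and to 448 and 421 in NoTx. With the GC trend removed, Slc1a3 alone was at 460, 409 and 520 CPM in MG and at 381 and 327 in NoTx. The B cell and astrocyte sums thus rested largely on 1 gene each. Endothelial and mural genes summed to 17.9 to 27.9 CPM in MG and to 57.8 and 55.8 in NoTx, with Pecam1, an adhesion molecule of endothelium that myeloid cells also carry, at 16.3, 19.4 and 19.0 CPM in MG and 49.8 and 47.9 in NoTx. T and NK cell genes summed to at most 1.98 CPM in the 5 libraries. Neuronal genes summed to 8.57 to 11.8 CPM in MG and to 5.905 and 4.067 in NoTx. Over the 12 tested neuronal genes the median log2 fold change was 2.425, and 0 passed. Globin transcripts were high in 1 library only: Hba-a2 was at 2.21, 6.09 and 23.1 CPM in MG, 8.05 in NoTx replicate 1 and 235 in NoTx replicate 2. Igkc, the kappa light chain of antibodies, was at 22.1 CPM in NoTx replicate 2 and at most 0.416 in the other 4 libraries.

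The single gene that rose was Xist, the RNA that coats the inactive X chromosome in females. Xist was at 305, 408 and 360 CPM in MG and at 0.520 and 0.928 in NoTx (log2 fold change 8.95, SE 1.5, adjusted p = 0.0155 by edgeR). Its antisense partner Tsix was at 43.0, 70.8 and 104 CPM in MG and at 0.638 and 2.08 in NoTx; the 2 overlap, and without a statement that counting used strand their reads cannot be told apart. The Y-linked genes went the other way: the 4 tested summed to 97.4, 64.6 and 0.777 CPM in MG and to 452 and 534 in NoTx. Ddx3y, a Y-linked RNA helicase, was at 54.9, 25.9 and 0.472 CPM in MG and at 241 and 294 in NoTx. MG replicates 1 and 2 thus held both Xist and Y-linked transcripts, MG replicate 3 held Xist with Y-linked transcripts under 1 CPM, and both NoTx libraries held Y-linked transcripts with Xist under 1 CPM. Sex and the 2 arms cannot be told apart here, and Cybb is itself X-linked.

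Both loci altered in NoTx, Csf1r and Cx3cr1, were more abundant in every MG library without passing the test. Csf1r was at 5929, 5729 and 11794 CPM in MG and at 2925 and 745 in NoTx (log2 fold change 2.09, SE 0.88, unadjusted p = 0.0263 by edgeR). Cx3cr1 was at 8050, 9088 and 10836 CPM in MG and at 2768 and 987 in NoTx (log2 fold change 2.31, SE 0.70, unadjusted p = 0.00338, adjusted p = 0.812 by edgeR). For both genes the lowest library was NoTx replicate 2 and the groups did not overlap. With the GC trend removed the log2 fold change was 1.68 for Csf1r and 2.24 for Cx3cr1. The counts cover whole genes and so do not show whether floxed parts of Csf1r were present.

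Among the other homeostatic genes the values went both ways. Of 25 tested, 0 passed, and 12 lay above and 4 below in all MG libraries, where 18.5% and 18.3% of all genes did. The 4 with an unadjusted p under 0.05 by edgeR were Csf1r, Cx3cr1, Slco2b1 and Olfml3, all higher. Over all genes 1.27% were higher at that limit. The median log2 fold change was 0.29. Tmem119, a surface protein by which microglia are identified, was at 6491, 6465 and 10047 CPM in MG and at 3375 and 586 in NoTx (log2 fold change 1.95, SE 1.02, or 1.30 with the trend removed). Slco2b1, an organic anion transporter, was at 2015, 1530 and 4005 CPM in MG and at 827 and 213 in NoTx. Tmem119 and Slco2b1 shared with Csf1r a high value in MG replicate 3 and a low one in NoTx replicate 2. Those below in all MG libraries included P2ry12 (log2 fold change -0.59, SE 0.30), Gpr34, a lysophosphatidylserine receptor (-0.68), and the transcription factor Mef2c (-0.28). With the GC trend removed P2ry12 was at -0.09 and Gpr34 at 0.08. The list then held 8 genes above and 3 below (16.2% and 17.3% of all genes were), with a median of 0.18. Sall3 (0.00) and Siglech (0.17) were close to 0 as counted, with SE of 0.74 and 0.31, and were at -0.79 and 0.18 with the trend removed. The paired points in the plot of homeostatic genes show how far each value moved with the GC correction.

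**Figure D4:**
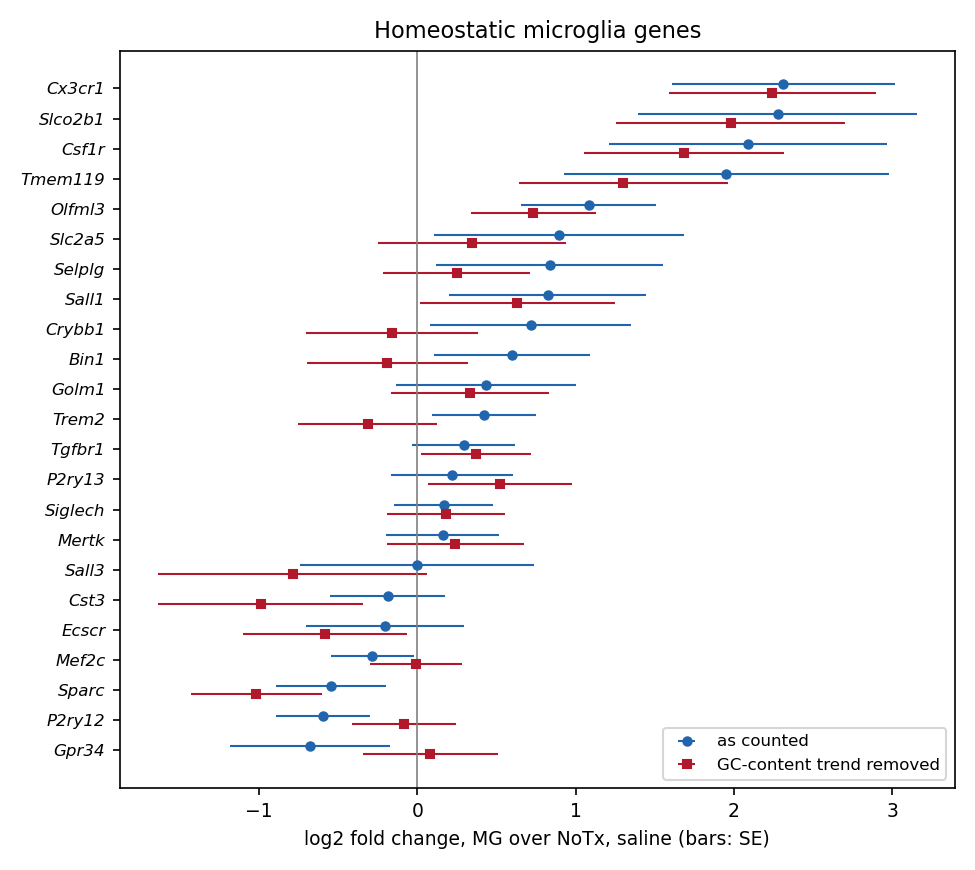
Log2 fold change of MG over NoTx after saline for tested homeostatic genes, with bars of 1 SE, as counted (blue circles) and with the GC-content trend removed (red squares). Cx3cr1, Slco2b1 and Csf1r lie above 1.5 under both, and P2ry12 moves from -0.59 to -0.09.

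Genes of MHC class I presentation, by which a cell displays peptides to T cells, lay on the MG side in a larger share than any other list with 3 or more tested genes. All 20 tested had a positive log2 fold change, as did 9621 of all 18867 genes. Of the 20, 17 lay above in all MG libraries, where the share over all genes was 18.5%. At an unadjusted p under 0.05 by edgeR there were 8, where 1.27% of all genes were higher, and 0 passed. The median log2 fold change was 1.21, and the summed level was 6946 to 10330 CPM in MG and 4209 and 4779 in NoTx. H2-K1, a classical heavy chain, was at 601, 728 and 726 CPM in MG and at 188 and 161 in NoTx (log2 fold change 1.97, SE 0.62, unadjusted p = 0.00415, adjusted p = 0.905 by edgeR). H2-D1, the other classical heavy chain, was at 725, 946 and 1976 CPM in MG and at 179 and 112 in NoTx (log2 fold change 3.06, SE 0.88, adjusted p = 0.673 by edgeR). The non-classical H2-Q6 was at 39.2, 42.2 and 22.7 CPM in MG and at 4.09 and 1.23 in NoTx. H2-K1 was even within each arm, and H2-D1 was highest in MG replicate 3. Heavy chain genes are near-identical and differ between mouse strains, so the split of reads among H2 genes is uncertain, and strain is not given in the labels.

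Partners of the heavy chains, which are not paralogous to them, ranged from overlap to values near that of H2-K1. The peptide transporter subunit Tap1 was at 61.1, 60.2 and 101 CPM in MG and at 25.982 and 11.6 in NoTx (log2 fold change 1.98, SE 0.66). Tapbp, the bridge between transporter and heavy chain, was at 724, 656 and 1207 CPM in MG and at 363 and 278 in NoTx (log2 fold change 1.43). B2m, the shared light chain, was at 3022, 3977 and 3336 CPM in MG and at 2163 and 2833 in NoTx (log2 fold change 0.46, SE 0.43). The immunoproteasome subunits Psmb8 (0.30) and Psmb10 (0.16) overlapped between arms. Pdia3, a chaperone of loading, was at 124, 180 and 1038 CPM in MG and at 161 and 191 in NoTx, so MG replicate 3 alone lay above the NoTx libraries. With the GC trend removed 18 of 20 were positive, 13 lay above in all MG libraries (16.2% of all genes did), and the median was 0.93. At an unadjusted p under 0.05 by edgeR 4 were then higher, where 178 of all 18867 genes were. The trend-removed log2 fold change was 1.31 for H2-K1, 1.35 for Tap1, 0.53 for Tapbp and 0.97 for B2m. H2-K1 passed in the fit of the 8 saline libraries (log2 fold change 2.00, adjusted p = 0.0404 by edgeR). The list of MHC class II presentation had a median of -0.02 over 12 tested genes, with 2 above and 1 below (18.5% and 18.3% of all genes were). When the trend was removed the median was -0.44, with 0 above and 4 below (16.2% and 17.3% of all genes were).

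**Figure D5:**
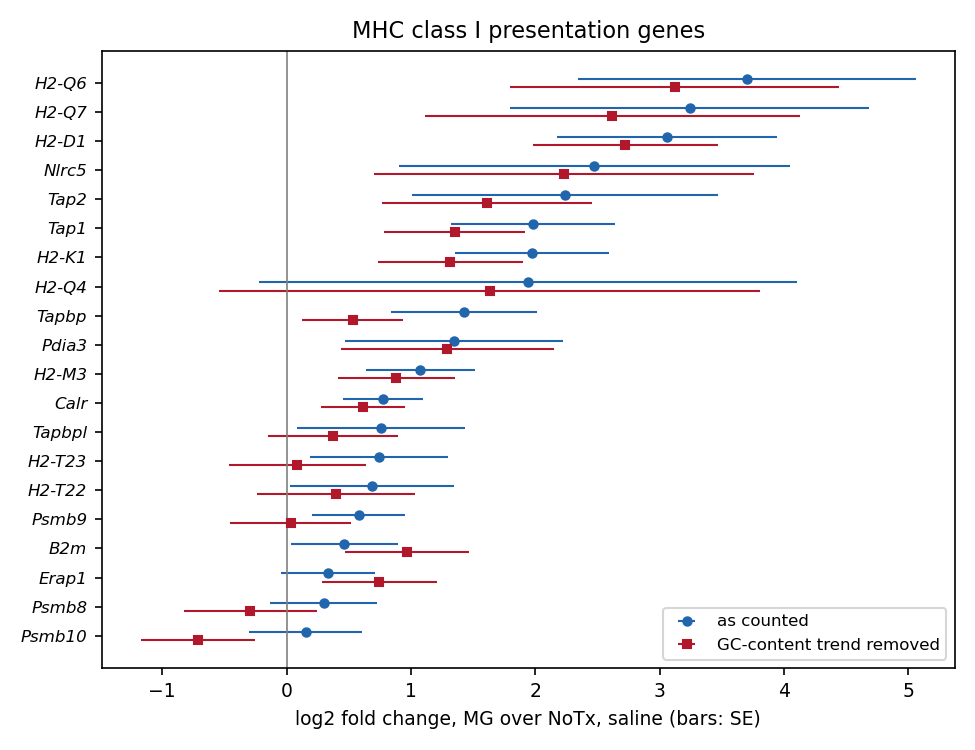
Log2 fold change of MG over NoTx after saline for the 20 tested genes of MHC class I presentation, with bars of 1 SE, as counted (blue circles) and with the GC-content trend removed (red squares). All 20 blue points lie above 0, and Psmb8 and Psmb10 fall below 0 with the trend removed.

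Lysosomal and phagocytic genes leaned the same way with no call. Of 37 tested, 22 lay above and 1 below in all MG libraries (18.5% and 18.3% of all genes did), and the median was 0.53. Once the GC trend was removed the median was 0.38, with 16 above and 2 below (16.2% and 17.3% of all genes were). Grn, the lysosomal protein progranulin, was at 1467, 1994 and 2497 CPM in MG and at 849 and 385 in NoTx (log2 fold change 1.69, SE 0.60, or 1.12 with the trend removed). Ctsd, the protease cathepsin D, was at 10511, 13968 and 18522 CPM in MG and at 6161 and 2446 in NoTx (log2 fold change 1.74, SE 0.82). Ctsc, cathepsin C, had a log2 fold change of 0.24, or 0.55 with the trend removed, where Ctsd was at 1.23. The glycolysis list had 14 of 24 above and 0 below (18.5% and 18.3% of all genes were), with a median of 0.77. After GC correction the median was 0.30, with 11 above and 1 below (16.2% and 17.3% of all genes were).

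Type I interferon response genes were mostly on the MG side at small sizes. Of 46 tested, 36 had a positive log2 fold change, as did 9621 of all 18867 genes. Of the 46, 0 passed, 17 lay above and 4 below in all MG libraries, where 18.5% and 18.3% of all genes did. The median was 0.36, or 0.52 with the GC trend removed. Usp18, which restrains interferon receptor signalling, was at 42.5, 48.5 and 38.3 CPM in MG and at 14.3 and 22.3 in NoTx (log2 fold change 1.24, SE 0.66). Gbp2, an interferon-induced GTPase, was at 70.8, 93.7 and 38.3 CPM in MG and at 21.99 and 14.6 in NoTx (log2 fold change 1.89, SE 0.97). Ifitm3, an antiviral membrane protein, had the reverse order with overlap: 20.0, 38.1 and 19.9 CPM in MG and 32.9 and 118 in NoTx (log2 fold change -1.54).

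Inflammatory genes had 11 of 36 above and 2 below (18.5% and 18.3% of all genes were), with a median of 0.44. Icam1, an adhesion molecule induced by NF-kB, was at 216, 275 and 368 CPM in MG and at 104 and 57.4 in NoTx (log2 fold change 1.82, SE 0.63, unadjusted p = 0.00828 by edgeR). Cd83, a surface protein of activated microglia, was at 761.8, 731 and 738 CPM in MG and at 394 and 411 in NoTx (log2 fold change 0.89). Both arms were even for Cd83, and neither gene passed.

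Disease-associated microglia genes, which rise around plaques and dying cells, were split. Of 27 tested, 13 lay above and 4 below in all MG libraries, where 18.5% and 18.3% of all genes did. The median was 0.35 as counted and -0.15 with the GC trend removed, so its direction depended on the GC correction. Apoe, the lipid carrier, was at 63.0, 48.4 and 560 CPM in MG and at 48.1 and 37.7 in NoTx, and Axl, a receptor for dying cells, was at 29.1, 15.5 and 102 CPM in MG and at 12.046 and 1.99 in NoTx. Both were highest in MG replicate 3. Ccl6, a chemokine, was at 239, 327 and 293 CPM in MG and at 463 and 819 in NoTx (log2 fold change -1.16, unadjusted p = 0.0195 by edgeR).

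Transcription factors of microglia and immediate early genes held a few large values. Among 26 factors 3 lay above and 10 below in all MG libraries, where 18.5% and 18.3% of all genes did, and the median was -0.29. When the GC trend was removed the median was -0.74, with 4 above and 12 below (16.2% and 17.3% of all genes were). Klf4, a factor of monocytes that is also induced by stress, was at 0.769, 1.53 and 0.111 CPM in MG and at 18.5 and 17.6 in NoTx (log2 fold change -4.48, SE 1.56, unadjusted p = 0.00897 by edgeR). Fos, an immediate early gene, was at 29.3, 23.7 and 24.5 CPM in MG and at 118 and 59.2 in NoTx. Junb, of the same family, went the other way, with 25.1, 26.9 and 376 CPM in MG and 17.4 and 7.97 in NoTx. Every MG library lay above both NoTx libraries for Junb, and MG replicate 3 stood far above the rest. Ribosomal protein genes had 0 above and 0 below among 65 (18.5% and 18.3% of all genes were), with a median of -0.02. When the trend was removed their median was -0.39, with 0 above and 3 below (16.2% and 17.3% of all genes were).

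Above an average log2 CPM of 4 over the 5 libraries, the 12 in each direction with the smallest unadjusted p also held several outside the lists. Hcar2, a receptor for hydroxybutyrate and niacin, was at 65.1, 93.5 and 59.5 CPM in MG and at 7.32 and 6.66 in NoTx (log2 fold change 3.38, SE 1.06, adjusted p = 0.905 by edgeR). Ly9, a receptor of the SLAM family, was at 180, 193 and 233 CPM in MG and at 42.9 and 72.9 in NoTx (log2 fold change 1.80, SE 0.53). St6gal1, a sialyltransferase, was at 69.8, 65.7 and 90.8 CPM in MG and at 17.5 and 13.2 in NoTx (log2 fold change 2.29, SE 0.68). None of the 3 overlapped between arms. Hcar2 passed in the fit of the 8 saline libraries, with adjusted p = 0.0272 by edgeR. Ccr1, a chemokine receptor, was at 98.9, 196 and 31.3 CPM in MG and at 23.1 and 26.8 in NoTx, while Gm37376 and Srp54c had log2 fold changes of 2.58 and 2.05.

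On the lower side, Upk1b, a tetraspanin first described in bladder lining, was at 114, 159 and 75.4 CPM in MG and at 452 and 557 in NoTx (log2 fold change -2.12, SE 0.45, adjusted p = 0.106 by edgeR). Lrrc8a, the core subunit of the volume-regulated anion channel, was at 68.0, 91.3 and 48.4 CPM in MG and at 210 and 299.9 in NoTx (log2 fold change -1.88, SE 0.46). Anxa1, an anti-inflammatory annexin of myeloid cells, was at 0.466, 0.319 and 0.222 CPM in MG and at 16.0 and 229 in NoTx. Upk1b and Lrrc8a were of similar level in both NoTx libraries, and Anxa1 followed the neutrophil and monocyte genes in being highest in NoTx replicate 2.

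The seizure libraries gave the same contrast in other samples, which entered the saline test through its filter and its estimate of spread but not through the saline group means. There 9 genes were higher in MG (0.0477%) and 5 lower (0.0265%) by the same test, and the difference between the 2 contrasts passed for 2 genes (0.0106%). At an unadjusted p under 0.05 the shares were 5.95% higher and 5.1% lower after seizure, and 7.13% for the difference. None of the 10 genes called after saline passed after seizure. Clec12a was at 0.295, 0.374, 0.902 and 0.413 CPM in MG and at 0.968, 1.16 and 4.85 in NoTx after seizure (log2 fold change -2.10, unadjusted p = 0.000949 by edgeR). Pf4 had a log2 fold change of -2.51 there (unadjusted p = 0.000268 by edgeR) and Ifi203 one of -3.04 (unadjusted p = 0.000698 by edgeR). Mndal had one of -0.30, and its difference between the contrasts had adjusted p = 0.05 by edgeR, at the limit and not under it. Xist was at 187 to 421 CPM in the 4 MG seizure libraries and at 152, 2.28 and 297 in NoTx, so the arms overlapped. The NoTx seizure library with 820 CPM of neutrophil genes was replicate 3, and the other 2 had 6.64 and 13.2.

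Gene groups compared between treatments gave these values side by side. The MHC class I median was 1.21 after saline and 0.54 after seizure, with 17 and 1 of 20 genes above in all MG libraries, where 18.5% and 1.76% of all genes were. H2-K1 was at 955, 245, 1216 and 178 CPM in MG and at 145, 221 and 223 in NoTx after seizure (log2 fold change 1.72, unadjusted p = 0.00249 by edgeR), with overlap through MG replicate 4. Csf1r had a log2 fold change of -0.66 and Cx3cr1 of 0.46 after seizure, and the differences from saline had unadjusted p = 0.0199 and 0.0409 and adjusted p = 0.695 for each by edgeR. Ly9 was at 228, 80.2, 304 and 211 CPM in MG and at 26.8, 24.6 and 55.6 in NoTx after seizure, where it passed (log2 fold change 2.53, adjusted p = 0.0327 by edgeR). Pnp, a purine nucleoside phosphorylase, was at 105, 143 and 113 CPM in MG and at 251 and 344 in NoTx after saline (log2 fold change -1.31), and passed after seizure (-1.86, adjusted p = 0.0128 by edgeR). Lrrc8a had a log2 fold change of 1.04 after seizure against -1.88 after saline, and that difference did not pass (adjusted p = 0.262 by edgeR).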

How the data were processed

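Brain cells were sorted by flow cytometry, and libraries were made with a low-input kit that includes PCR and names no molecular identifiers, per the labels' protocols. The authors deposited estimated counts per gene, not normalized; 28.2% to 45.4% of values above 0 in a library were not whole, and no source used here names the tool behind such counts. The submitters' processing notes name Trim Galore 0.6.7, cutadapt 3.4, STAR 2.7.10a, featureCounts of Subread 2.4.5 and the build GRCm39.

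Counts were rounded to whole numbers and fitted with edgeR 4.0.16 in R 4.3.3: TMM scaling, the default expression filter by group, robust quasi-likelihood, 6 group means over all 21 libraries, and Benjamini-Hochberg adjustment over the 18867 genes tested. Higher and lower calls use an adjusted p under 0.05. SE is the log2 fold change divided by the square root of F. DESeq2 1.42.0 and voom of limma 3.58.1 were alternatives, as were RLE scaling, no filter, fewer libraries in the fit, a replicate block, thinned counts, each library left out, and removal of each library's trend on GC content (loess, span 0.5, known for 95.4% of genes tested). The edgeR model was tested on simulated data over 17826 genes. Named genes were Csf1r, Cx3cr1, list members, the calls, and up to 12 per direction above an average log2 CPM of 4; if fewer than 5 in a direction passed, those with the smallest unadjusted p were given as values. The members and the 33 gene lists were chosen with earlier results of these data known. Promoter windows are RefSeq's, in GRCm38.p6. Depth was 36528863 to 45425025 counts in the 5 libraries. Some list members enter the counts, medians and sums and are not reported here by name.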

Additional observations from a re-analysis of the deposited data

Results flagged for a closer look

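In the 4 MG libraries after seizure, 1 library stood apart from the other 3 for 2 of the genes called after saline. The measure was Dixon's ratio of the gap to the range. For normally distributed values, chance sets about 1 group in 20 apart in this way. That rate need not hold for levels near 0, as here. Pf4 was at 1.67, 0.249, 0.345 and 0.159 CPM, a ratio of 0.877 for replicate 1. Gm36161 was at 0, 0.125, 0 and 0 CPM, a ratio of 1 that rests on 1 count in replicate 2.

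The contrast of MG with NoTx differed between saline and seizure for 2 gene models, by edgeR's quasi-likelihood test of the difference. 4930523C07Rik was at 2.21, 4.90 and 4.36 CPM in MG and at 9.16 and 21.8 in NoTx after saline, and at 9.63, 8.10, 8.86 and 8.01 in MG and 0.069, 0.061 and 0 in NoTx after seizure (difference of log2 fold changes -9.47, adjusted p = 0.0141). Gm37900 was at 7.36, 6.75 and 8.33 CPM in MG and at 12.7 and 13.8 in NoTx after saline, and at 27.7, 5.48, 12.4 and 10.7 in MG and 0.069, 0.137 and 0.050 in NoTx after seizure (difference -8.03, adjusted p = 0.0321). In both, the NoTx libraries after seizure were the ones near 0. Treatment and batch cannot be told apart in either difference.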

How the results depend on the processing

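After saline 1 gene was higher and 9 lower. DESeq2 gave 49 and 55, voom 157 and 263, no low-count filter 1 and 17, the 5 libraries alone 1 and 1, the 8 saline libraries 3 and 30, and, chosen after seeing the data, voom on the 8 saline libraries 2 and 2 and those libraries with the GC trend removed 6 and 41. In the simulated saline comparison DESeq2 called 187 genes, 129 of them unchanged, where edgeR called 22 with 1 unchanged. Leaving out 1 library at a time gave 0 to 1 higher and 1 to 16 lower. All 10 genes were shared with the calls of DESeq2, voom, RLE scaling and thinned counts; 7 were shared with GC trend removal, 6 with no filter and 1, Xist, with the 5 libraries alone. The 14 calls after seizure became 632 with DESeq2, 24 with voom and 23 with no filter, and the 2 calls of the difference became 183, 27 and 4. With the replicate number as a block, 1 gene was higher and 2 lower after saline (Xist, Clec12a and Mndal), and 0 passed after seizure or for the difference. Same-numbered saline libraries deviated from their group means with correlations of -0.06 and 0.364. Deviations of the 2 NoTx libraries from their mean mirror each other by construction. These correlations therefore cannot decide whether same-numbered samples were linked. None of the 10 called genes changed sign under any alternative run. Of 145 single genes, 13 changed sign under at least 1 alternative, none of them called, and 7 did so with the GC trend removed (Irf8, Gpr34, Trem2, Psmb8, Isg15, Psmb10 and Spi1). Of 34 list medians, that of all genes included, 11 changed sign, 3 of them with the GC trend removed: disease-associated microglia (0.35 to -0.15), the Csf1 receptor axis (0.35 to -0.01) and mitochondrial transcripts (-0.10 to 0.76). The cause of these shifts was not tested. Thinning to the smallest total gave 1 higher and 9 lower, so depth differences among the 5 libraries did not move the counts.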

Other observations

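Genes beside Csf1r and Cx3cr1, which the NoTx genotype names, were read as a description, chosen after their values were seen. Of the 50 tested genes nearest to Csf1r on chromosome 18, 25 on each side, 0 passed and the median log2 fold change was 0.04. At an unadjusted p under 0.05 by edgeR 3 were higher and 3 lower, where 1.27% and 2.13% of all genes were. Among the 50, 13 lay above and 12 below in all MG libraries, where 18.5% and 18.3% of all genes did. Iigp1c, an interferon-inducible GTPase, was at 68.4, 43.1 and 50.8 CPM in MG and at 3.66 and 1.53 in NoTx after saline (log2 fold change 4.38, adjusted p = 0.242 by edgeR), and passed after seizure (5.42, adjusted p = 0.0212 by edgeR). F830016B08Rik, of the same family, had 1637 counts over the 3 MG libraries and 4 over the 2 NoTx libraries after saline. Iigp1 was at 58.0, 39.998 and 8.41 CPM in MG and at 2.67 and 4.45 in NoTx. Each of these 3 GTPase genes was higher in every MG library. Their sequences were not compared, and the split of reads among them is uncertain. Of the gene models between them, Gm4841 was also higher in every MG library (log2 fold change 2.38), while Gm5970 (0.25) and Gm50237 (3.56) overlapped. Pdgfrb, a receptor of mural cells that is the next tested gene to Csf1r, had 0 counts in MG and 194 over the 2 NoTx libraries. The 50 genes nearest to Cx3cr1 on chromosome 9 held 0 calls and had a median log2 fold change of 0.14.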
